A study of Mus musculus with 12 samples.

Results

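*Kdm5c*, *Kdm6a*, *Ddx3x*, *Eif2s3x* and *Mid1* are X‐linked genes known from female mouse cells to stay transcribed, at least in part, on the inactive X chromosome. These 5 genes were taken by symbol from the 24627 genes in the count files, of which 1071 lie on the X chromosome, and their values were followed through all 12 libraries. The question was how they respond to *Xist* when the only X chromosome of a cell is coated. RNA‐seq was done on J1 mouse ES cells, which carry 1 X and 1 Y chromosome and in which doxycycline (DOX) switches on *Xist* from its own locus through a tetracycline‐inducible promoter (*Xist*‐TetOP). The lines express full‐length *Xist* (*Xist* FL), *Xist* without the A repeat (*Xist* ΔA) or *Xist* from which the B and C repeats were deleted (called *Xist* ΔB+C). Each line was differentiated for 2 days in the absence (noDOX) or presence of 1.5 μg/ml DOX, with 2 replicates per group. The ΔB+C cells, as they are called here beside the FL and ΔA cells, are 1 clone made by CRISPR/Cas9 in the FL line, so the deletion and the clone cannot be told apart. The ΔA line was published earlier and is not among the mutants made in the FL line for the study. In comparisons with ΔA the deletion and the line therefore cannot be told apart either.

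In female cells *Xist* RNA spreads over 1 X chromosome and recruits silencing factors, among them those bound by the A repeat, while the B and C repeats serve the recruitment of Polycomb complexes. Genes that escape keep some transcription from the coated chromosome, and several of them, including *Kdm5c*, *Kdm6a*, *Ddx3x* and *Eif2s3x*, also have a homolog on the Y chromosome. Here every cell has a single X chromosome, so there is no active partner to mask a fall. Not every DOX‐treated cell forms an *Xist* domain, and in bulk RNA fewer expressing cells and less RNA per cell cannot be told apart.

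Library totals ran from 31337490 to 41240470 counts. *Xist* rose in every line (adjusted p = 4.33e-06, 1.80e-05 and 2.48e-06), from 2.74 ± 0.367 to 888 ± 27.6 CPM (counts scaled to the library total; SD, n = 2 per group throughout) in FL, from 7.31 ± 1.36 to 646 ± 107 in ΔA and from 2.52 ± 0.0337 to 1475 ± 447 in ΔB+C. The ES cell transcription factor *Pou5f1* lay between 1149 and 1811 CPM in every library, and the summed CPM of the 6 ES cell markers was 2211 to 3860. The 4 primed markers summed to 1095 to 2129 CPM, the 4 primitive endoderm markers to 5.70 to 22.0, the 3 trophoblast markers to 12.9 to 41.7 and the 4 fibroblast markers to 9.69 to 52.0, with *Lum*, a fibroblast gene, at 0 to 0.0794. The 4 mesendoderm markers summed to 176 and 240 CPM in FL noDOX and 37.0 and 133 in FL DOX, to 109 and 202 in ΔB+C noDOX and 39.3 and 133 in ΔB+C DOX, and to 42.2 to 63.1 in ΔA. Of all markers tested, *Eomes* fell in FL (-1.59 ± 0.29, adjusted p = 0.0427) and in ΔB+C (-1.38 ± 0.29, adjusted p = 0.0431), and *Fgf5*, a primed marker, fell in ΔB+C (-1.48 ± 0.32, adjusted p = 0.0434). Among all tested genes 1.09% passed as lower in FL and 2.13% in ΔB+C. In a fit with the replicate number as a block, *Sox2* and *Dppa5a* (adjusted p = 0.00504 and 0.00265) and the primed marker *Pou3f1* (adjusted p = 0.0322) also passed as higher and *Mixl1* (adjusted p = 0.00194) as lower in FL. In ΔB+C *Sox2* and *Zfp42* (adjusted p = 0.00345 and 0.0478) passed as higher and *Mixl1* and *Otx2* (adjusted p = 0.0243 and 0.00946) as lower. With the block, 5.72% of all tested genes passed as higher and 8.13% as lower in FL, and 9.89% and 12% in ΔB+C. The part of these cell states in the responses of the members was not tested. The ΔB+C DOX replicate 2 library was made from 100 ng of RNA by a low input method and the others from 1000 ng.

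Per kilobase of exon the order of the members was the same in every group. In FL noDOX, *Ddx3x*, an RNA helicase gene at chrX:13280970-13294052 (mm10, GENCODE), led with 202 ± 22.4 CPM per kb. *Eif2s3x*, which encodes the gamma subunit of the translation initiation factor eIF2 (chrX:94188707-94212862), followed with 121 ± 2.96, and *Kdm5c*, a demethylase of histone H3 lysine 4 (chrX:152233020-152274535), with 28.1 ± 1.82. *Kdm6a*, a demethylase that removes the Polycomb methyl mark from histone H3 lysine 27 (chrX:18162575-18279936), stood at 6.26 ± 0.621. *Mid1*, a microtubule‐associated ubiquitin ligase gene (chrX:169685199-170005736), was lowest at 1.32 ± 0.340 CPM per kb. Each neighbouring pair in this order was further apart than the spread of its replicates. *Mid1* crosses the pseudoautosomal boundary in the reference strain, and reads there may be lost or shared with the Y chromosome, so its low counts, 79 to 468 per library, are the least certain of the 5.

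The start regions of the 5 genes are shown as a description of their CG content, which was not tested against the responses to DOX. Each line gives 150 bases before to 30 bases after the RefSeq start (GRCm38.p6, which is mm10), on the gene's own strand, with CG dinucleotides in capitals.
Kdm6a, chrX:18162425-18162604, plus strand: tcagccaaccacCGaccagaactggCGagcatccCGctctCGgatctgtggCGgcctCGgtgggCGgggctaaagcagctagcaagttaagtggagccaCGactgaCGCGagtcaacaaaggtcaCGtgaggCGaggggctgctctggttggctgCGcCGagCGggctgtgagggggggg
Ddx3x, chrX:13280872-13281051, plus strand: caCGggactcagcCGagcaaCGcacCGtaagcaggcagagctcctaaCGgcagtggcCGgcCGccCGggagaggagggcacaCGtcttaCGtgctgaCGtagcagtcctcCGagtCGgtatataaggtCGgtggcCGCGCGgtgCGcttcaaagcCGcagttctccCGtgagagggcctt
Eif2s3x, chrX:94212622-94212801, minus strand: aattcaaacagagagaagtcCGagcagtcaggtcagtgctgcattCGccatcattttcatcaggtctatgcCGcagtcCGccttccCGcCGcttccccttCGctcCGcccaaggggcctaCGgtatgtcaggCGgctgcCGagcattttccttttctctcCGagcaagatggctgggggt
Kdm5c, chrX:152233077-152233256, plus strand: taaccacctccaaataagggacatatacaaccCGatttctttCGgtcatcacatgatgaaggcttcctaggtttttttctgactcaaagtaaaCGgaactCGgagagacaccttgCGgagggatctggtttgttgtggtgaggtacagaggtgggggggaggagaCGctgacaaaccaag
Mid1, chrX:169685049-169685228, plus strand: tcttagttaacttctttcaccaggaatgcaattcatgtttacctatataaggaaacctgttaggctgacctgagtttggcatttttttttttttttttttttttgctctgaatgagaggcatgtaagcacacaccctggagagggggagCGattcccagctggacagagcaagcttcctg

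*Ddx3x* had 20 CG dinucleotides in these 180 bases, *Kdm6a* 15, *Eif2s3x* 12, *Kdm5c* 6 and *Mid1* 1. The 493 windows of the 388 other tested X‐linked genes with a RefSeq start had a median of 10.0, with quartiles at 6.0 and 15.0. RefSeq lists 3 starts for *Mid1*, of which the first is shown, and the others had 3 and 10 CG. The RefSeq starts of *Kdm5c* (152233227), *Eif2s3x* (94212651) and *Ddx3x* (13281022) lie inside the GENCODE gene bounds given above. The windows shown for *Kdm5c* and *Eif2s3x* do not include the GENCODE start of the gene. A search of the longer RefSeq windows (250 bases before to 50 after the start, both strands) for AANATGGC, the core of the motif bound by YY1, found 1 match each in *Kdm5c* and *Eif2s3x*, shown here as 30 bases with the match in capitals, and none in *Kdm6a*, *Ddx3x* or *Mid1*.
Kdm5c, bases 28 to 35 after the start: gctgacaaaccAAGATGGCggtggcagcgg
Eif2s3x, bases 16 to 23 after the start: tctctccgagcAAGATGGCtgggggtgagg

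The same letters were found in 6.05% of all 32851 RefSeq start windows and in 9.74% of those of the other tested X‐linked genes. The match is a description of these letters and was not tested against the expression values.

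*Kdm6a* showed no fall in the lines in which other X‐linked genes fell. In FL its level was 56.1 and 48.8 CPM in noDOX replicates 1 and 2, and 56.9 and 50.7 CPM in the DOX replicates. In ΔB+C it was 59.6 and 53.3 CPM without DOX and 69.3 and 58.4 with DOX. The DOX libraries lay slightly above the noDOX library of the same replicate number in each of these pairs, although the groups overlapped. The log2 (fold change) was 0.036 ± 0.13 (SE; adjusted p = 0.934) in FL, with a 95% interval of -0.25 to 0.32, and 0.18 ± 0.13 (adjusted p = 0.499) in ΔB+C, with an interval of -0.11 to 0.46. In ΔA both DOX libraries, at 70.4 and 63.5 CPM, were below both noDOX libraries, at 82.1 and 73.5. That pattern was seen in 35.7% of the other X‐linked genes in this line, and the change of -0.22 ± 0.13 did not pass the test (adjusted p = 1.00).

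**Figure D1:**
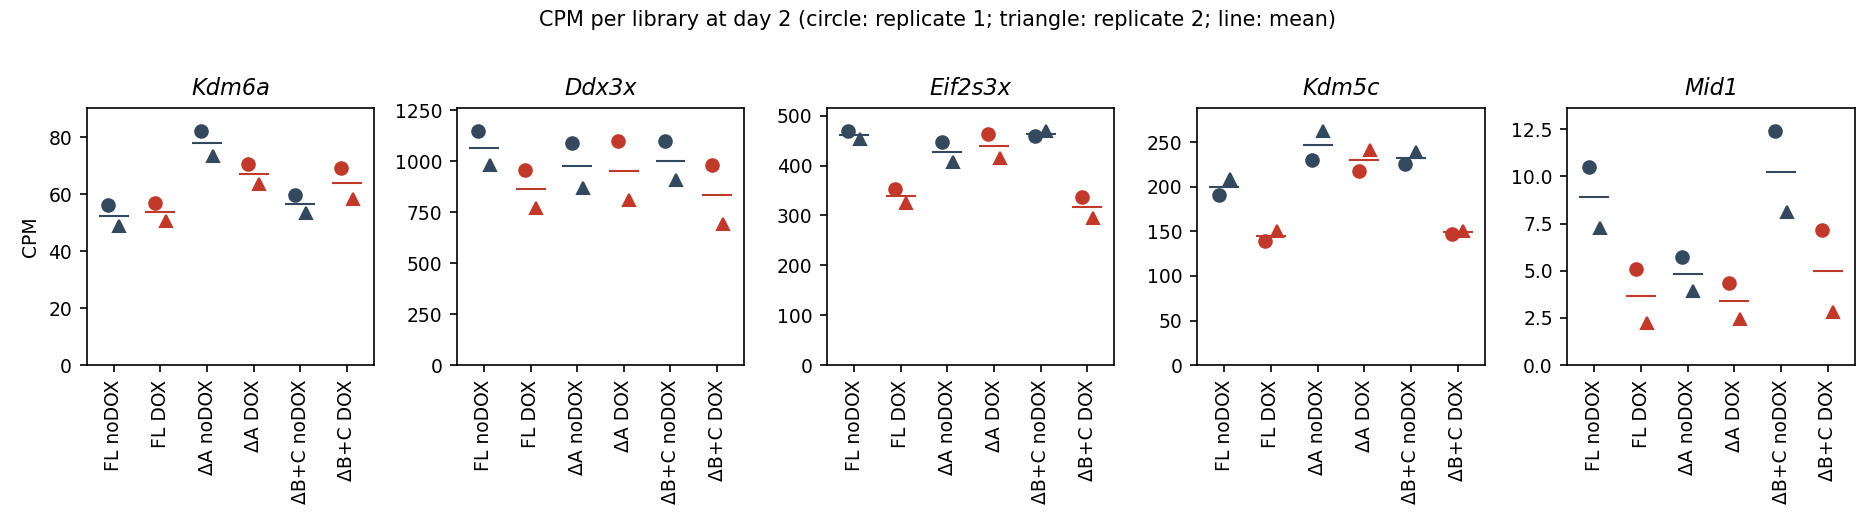
CPM of the 5 members (vertical axes, each starting at 0) in the 6 groups, with circles for replicate 1, triangles for replicate 2, horizontal lines for means, noDOX in dark blue and DOX in red. *Kdm6a* shows no fall with DOX in FL (52.5 and 53.8 CPM on average) or ΔB+C (56.4 and 63.8), while *Eif2s3x* and *Kdm5c* are lower with DOX in both lines without overlap.

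*Ddx3x* showed small differences, and whether they passed the test depended on how the replicates were treated. In FL it was at 1148 and 981 CPM without DOX and at 960 and 771 with DOX, with no overlap. In ΔB+C the noDOX libraries stood at 1098 and 907 and the DOX libraries at 983 and 691, and the groups overlapped, since replicate 2 was lower than replicate 1 in each group. The log2 (fold change) was -0.30 ± 0.22 (adjusted p = 0.608) in FL and -0.26 ± 0.22 (adjusted p = 0.571) in ΔB+C. With the replicate number as a block, which removes the shared difference between replicates, *Ddx3x* passed the test as lower in FL (-0.30 ± 0.076, adjusted p = 0.0239) and in ΔB+C (-0.27 ± 0.076, adjusted p = 0.0253). Without the block, leaving out 1 library moved the FL value to between -0.46 (without DOX replicate 1) and -0.15 (without DOX replicate 2). In ΔB+C it moved to between -0.54 (without DOX replicate 1) and -0.028 (without DOX replicate 2, the library made from 100 ng). In ΔA it was at 1088 and 869 CPM without DOX and 1099 and 811 with DOX, and overlapped (-0.035 ± 0.22, adjusted p = 1.00).

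*Eif2s3x* fell in ΔB+C, from 459 and 469 CPM to 337 and 295, which left 68.1% of the noDOX level (log2 (fold change) -0.55 ± 0.097, adjusted p = 0.0227). In FL it went from 469 and 453 CPM to 353 and 326, or 73.6%, again without overlap. That change of -0.44 ± 0.097 missed the threshold (adjusted p = 0.0736) and passed it with the replicate block (adjusted p = 0.00187). *Eif2s3x* was in ΔA at 447 and 408 CPM without DOX and 464 and 414 with DOX (0.039 ± 0.097, adjusted p = 1.00), where the groups overlapped.

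*Kdm5c* behaved much like *Eif2s3x*. In ΔB+C it fell from 225 and 239 CPM to 147 and 151, or 64.2% (-0.64 ± 0.098, adjusted p = 0.0135). In FL it was at 191 and 209 CPM without DOX and 139 and 151 with DOX, or 72.5%, without overlap (-0.46 ± 0.097, adjusted p = 0.0657; 0.000756 with the replicate block). In ΔA the values of 231 and 262 CPM without DOX and 218 and 242 with DOX overlapped (-0.10 ± 0.097, adjusted p = 1.00). The ΔB+C calls of both genes were lost when any 1 of 3 libraries of that line was left out. Without noDOX replicate 1, noDOX replicate 2 or DOX replicate 2 the adjusted p was 0.0704, 0.0974 and 0.0838 for *Kdm5c* and 0.102, 0.155 and 0.124 for *Eif2s3x*, with changes of -0.68, -0.59 and -0.66 and of -0.57, -0.54 and -0.46.

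*Mid1* had the largest difference of the members and the widest error. In FL it was at 10.5 and 7.27 CPM without DOX and at 5.07 and 2.23 with DOX, and in ΔB+C at 12.4 and 8.11 without DOX and 7.13 and 2.81 with DOX. Both DOX libraries were below both noDOX libraries in each of these lines. The log2 (fold change) was -1.29 ± 0.53 (adjusted p = 0.326) in FL and -1.04 ± 0.52 (adjusted p = 0.329) in ΔB+C, and with the replicate block both passed, at -1.35 ± 0.21 (adjusted p = 0.00176) and -1.11 ± 0.20 (adjusted p = 0.00338). In ΔA the values of 5.71 and 3.95 CPM without DOX and 4.37 and 2.45 with DOX overlapped (-0.50 ± 0.53, adjusted p = 1.00). Leaving out 1 library moved the *Mid1* value in FL to between -1.99 (without DOX replicate 1) and -0.81 (without DOX replicate 2), and in ΔB+C to between -1.87 and -0.52, again without DOX replicates 1 and 2. As for *Ddx3x*, replicate 2 was below replicate 1 in all 6 groups.

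Both DOX libraries lay below both noDOX libraries for 4 of the 5 members in FL and 3 of 5 in ΔB+C, as they did for 88.2% and 82.4% of the other tested X‐linked genes and 25.7% and 23.3% of all tested genes. In the test, 0 of the 5 members passed the edgeR test as lower in FL, against 1.09% of all tested genes and 27.5% of the 459 other tested X‐linked genes. At an unadjusted p under 0.05 there were 3, DESeq2 called 2 and limma‐voom 0, and the shares of other genes called in these ways were not counted. With the replicate block the count was 4 of 5, beside 8.13% of all tested genes and 80.6% of the other X‐linked genes, and the member left out was *Kdm6a*. In ΔB+C, 2 of 5 passed, beside 2.13% of all tested and 34.2% of the other X‐linked genes, and 4 of 5 with the block, beside 12% and 75.6%. In ΔA, 0 passed by edgeR, beside 0% of the other X‐linked genes, and 0 passed by DESeq2, by limma‐voom or at an unadjusted p under 0.05. With the block the ΔA count was 0 as well, beside 0.0152% of all tested genes. No member passed as higher in any line, where 0.144% of all tested genes did in FL, 0.00758% in ΔA and 0.811% in ΔB+C. With the block the same was true, beside 5.72%, 0.00758% and 9.89% of all tested genes and 0.871% of the other X‐linked genes in ΔB+C. The share of members called was thus near that of the other X‐linked genes in ΔB+C and, with the block, in both lines.

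**Figure D2:**
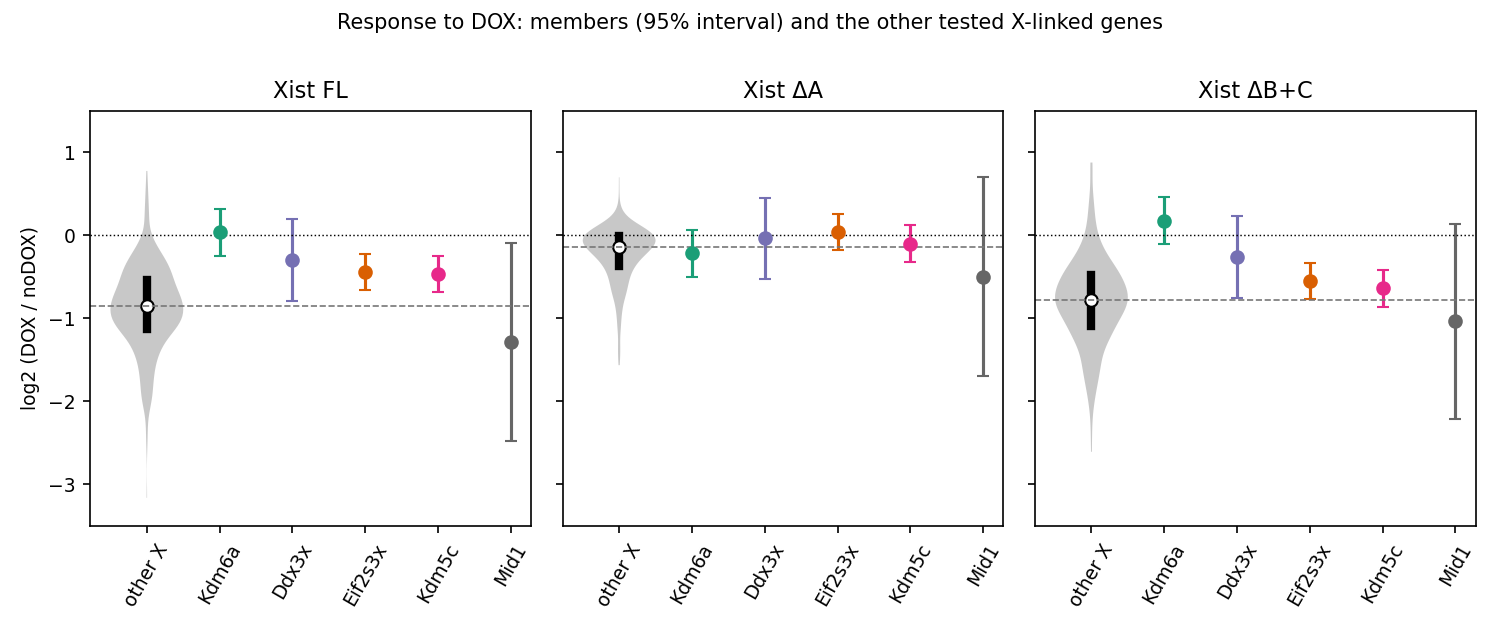
Log2 (fold change) with DOX for each member (points, 95% intervals) beside the 459 other tested X‐linked genes (violin, bar for the quartiles, white point and dashed line for the median), in the 3 lines. The members step down from *Kdm6a* at 0.036 to *Mid1* at -1.29 in FL, around a median of -0.86 for the other X‐linked genes, and the order is the same in ΔB+C.

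The log2 (fold change) of the other X‐linked genes was centred on a median of -0.86 in FL, -0.78 in ΔB+C and -0.14 in ΔA, against 0.0027, 0.0060 and 0.0032 for the 12721 autosomal genes. The median of the members was -0.44, -0.55 and -0.10. In FL, 97.2% of the other X‐linked genes had a lower log2 (fold change) than *Kdm6a*, 88.9% a lower one than *Ddx3x*, 81.5% than *Eif2s3x* and 80.0% than *Kdm5c*, but 17.2% than *Mid1*. In ΔB+C the percentages were 96.5, 87.8, 70.2, 62.5 and 28.5 in the same order. In ΔA they ran from 17.0% for *Mid1* to 82.4% for *Eif2s3x*, with *Kdm6a* at 38.6%. The members thus had the same order in FL and ΔB+C and another in ΔA, although *Eif2s3x* and *Kdm5c* lay within their errors of each other in both lines.

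The replicate pairs were also read one by one. For *Kdm6a* the log2 ratio of DOX to noDOX was 0.019 and 0.055 in replicates 1 and 2 of FL and 0.22 and 0.13 in ΔB+C. For *Kdm5c* it was -0.45 and -0.47, and -0.61 and -0.66. For *Eif2s3x* it was -0.41 and -0.48, and -0.45 and -0.67, so the order of these 2 genes was not the same in both replicates. For *Ddx3x* it was -0.26 and -0.35, and -0.16 and -0.39. The median of the other X‐linked genes was -0.77 and -0.94 in FL and -0.68 and -0.91 in ΔB+C, so replicate 2 had the lower median in both lines. These ratios were computed after the data had been seen. For *Mid1* they were -1.05 and -1.71 in FL, and -0.80 and -1.53 in ΔB+C. Replicate 2 had the lower ratio in both lines for *Mid1*, *Ddx3x*, *Eif2s3x* and *Kdm5c*. For *Kdm6a* replicate 2 had the higher ratio in FL and the lower in ΔB+C.

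To test the members against the chromosome rather than against 0, the libraries were rescaled on the X‐linked genes other than *Xist* and the members, so that a value of 0 means a change equal to the X‐linked trend. On this scale *Kdm6a* departed upwards by 0.83 ± 0.099 in FL (log2, SE; adjusted p = 0.00194 over the tested X‐linked genes) and by 0.94 ± 0.099 in ΔB+C (adjusted p = 0.000683). In the same fit 1.96% and 4.36% of the other X‐linked genes departed upwards. In ΔA *Kdm6a* was at -0.078 ± 0.098 (adjusted p = 0.872). The departure was past the threshold in each of the 12 fits that leave out 1 library, with adjusted p between 0.00265 and 0.0407 in FL and between 0.00179 and 0.0130 in ΔB+C. Without the block, *Kdm6a* was the 1 member whose departure differed from that in ΔA, by 0.91 ± 0.14 for FL (adjusted p = 0.0220) and by 1.02 ± 0.14 for ΔB+C (adjusted p = 0.00886). Of the other X‐linked genes 0% were higher in these differences, and 0.436% and 1.31% were lower.

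**Figure D3:**
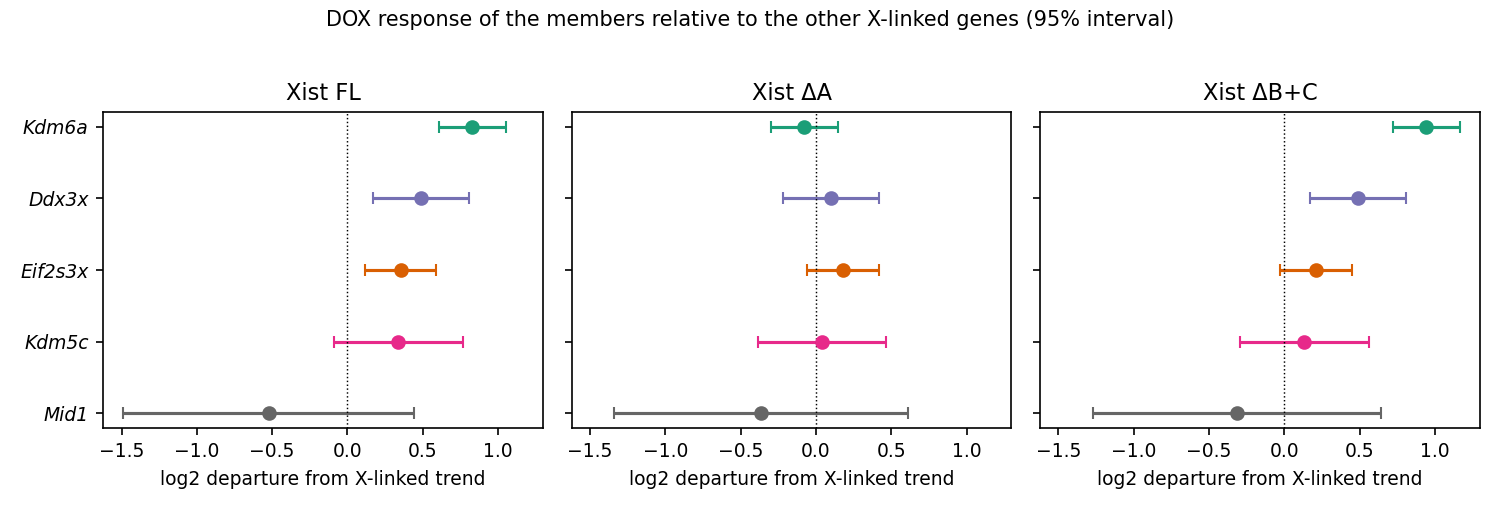
Departure of each member from the trend of the other X‐linked genes (horizontal axis, log2, 95% intervals) in the 3 lines, where 0 is a response equal to that trend. *Kdm6a* lies at 0.83 in FL and 0.94 in ΔB+C with intervals clear of 0, while *Mid1* lies on the other side at -0.52 and -0.32 with intervals that include 0.

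The other members were closer to the trend. *Ddx3x* stood at 0.49 ± 0.14 in both lines (adjusted p = 0.0653 in FL and 0.0517 in ΔB+C), and passed in both with the replicate block (adjusted p = 0.000867 and 0.000678). *Eif2s3x* stood at 0.35 ± 0.11 in FL (adjusted p = 0.0700; 0.00559 with the block) and at 0.21 ± 0.11 in ΔB+C (adjusted p = 0.214; 0.0643 with the block). *Kdm5c* stood at 0.34 ± 0.19 in FL (adjusted p = 0.270; 0.00596 with the block) and at 0.13 ± 0.19 in ΔB+C (adjusted p = 0.698). *Mid1* was below the trend, at -0.52 ± 0.43 in FL (adjusted p = 0.444; 0.0313 with the block) and -0.32 ± 0.42 in ΔB+C (adjusted p = 0.680). With the block, 17.4% of the other X‐linked genes departed upwards and 21.6% downwards in FL, and 17.4% and 21.8% in ΔB+C. In ΔA none of the members departed in either fit, by limma‐voom or at an unadjusted p under 0.05.

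Few X‐linked genes ranked above *Kdm6a*. In FL 13 and in ΔB+C 16 of the 459 others had a higher log2 (fold change), and 9 did in both. Besides *Kdm6a*, 6 genes departed upwards past the threshold in both lines, which were named after their values were seen. These were *Atp6ap2*, *Xlr4a*, *Haus7*, *Taf1*, *Mbtps2* and *Zrsr2*, with departures between 0.43 (*Zrsr2*) and 0.79 (*Xlr4a*) in FL. *Xlr4a* had a mean of 2.43 CPM over the 12 libraries, against 61.9 for *Kdm6a*.

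The responses of the members were not found to differ between FL and ΔB+C. The authors counted a higher share of cells with an *Xist* domain in ΔB+C than in FL after DOX, and the responses were not adjusted for it. The difference in response (ΔB+C minus FL) was 0.14 for *Kdm6a* with a 95% interval of -0.26 to 0.55, -0.18 for *Kdm5c* with -0.49 to 0.13, and -0.11 for *Eif2s3x* with -0.42 to 0.20. It was 0.038 for *Ddx3x* with -0.66 to 0.73 and 0.25 for *Mid1* with -1.41 to 1.91, intervals wide enough to hold large differences. All 5 had an adjusted p of 1.00, 0 had an unadjusted p under 0.05, and 0 of the 13191 tested genes passed this test in either direction by edgeR.

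Against ΔA, 0 members passed in edgeR without the block, where 3.7% of the other X‐linked genes passed as lower for ΔB+C, 0% for FL and 7.41% for the mean of both, and 0.159%, 0% and 0.303% of all tested genes. None was higher, beside 0.0455% of all tested genes for ΔB+C and 0.0758% for the mean. At an unadjusted p under 0.05, 2 members were lower in each comparison, *Kdm5c* and *Eif2s3x*. DESeq2 called these 2 for ΔB+C and 0 for FL, and limma‐voom called 0 in both. Shares of other genes called in these ways were not counted. With the block, *Kdm5c* and *Eif2s3x* had lower responses in ΔB+C than in ΔA, by -0.54 ± 0.088 (adjusted p = 0.00531) and -0.60 ± 0.097 (adjusted p = 0.00530), and *Kdm6a* a higher one, by 0.39 ± 0.092 (adjusted p = 0.0237). In that fit 41.8% of the other X‐linked genes were lower and 0.654% higher, and 5.09% and 4.23% of all tested genes. For FL the block gave -0.36 ± 0.088 for *Kdm5c* (adjusted p = 0.0470) and -0.48 ± 0.097 for *Eif2s3x* (adjusted p = 0.0232), beside 36.8% of the other X‐linked genes and 1.99% of all tested genes. For the mean of FL and ΔB+C it gave the same 3 genes as for ΔB+C, beside 51.6% of the other X‐linked genes lower and 0.436% higher, and 6.02% and 5% of all tested genes.

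Without DOX the lines already differed in some of these genes. *Kdm6a* was higher in ΔA noDOX (77.8 ± 6.07 CPM) than in FL noDOX (52.5 ± 5.21), by 0.57 ± 0.13 (log2, SE; adjusted p = 0.0256), where 4.3% of all tested genes and 2.83% of the other X‐linked genes were called higher. This call was lost when any 1 of the 4 noDOX libraries of these lines was left out: the adjusted p was 0.128 and 0.0891 without ΔA noDOX replicates 1 and 2, and 0.0775 and 0.154 without FL noDOX replicates 1 and 2. *Kdm5c* was at 247 ± 22.5 against 200 ± 12.9 CPM (0.30 ± 0.097, adjusted p = 0.0837; 0.00355 with the block). *Mid1* was at 4.83 ± 1.25 against 8.88 ± 2.28 CPM (-0.88 ± 0.52, adjusted p = 0.324; 0.00632 with the block). With the block such calls were common between these lines, with 16.2% of all tested and 10.9% of the other X‐linked genes higher and 17.2% and 16.3% lower. *Ddx3x* and *Eif2s3x* differed by -0.12 ± 0.22 and -0.11 ± 0.097 (adjusted p = 0.762 and 0.520). Between ΔB+C and FL no member passed, with the largest difference at 0.22 ± 0.097 for *Kdm5c* (adjusted p = 0.852; 0.109 with the block).

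The Y‐linked homologs lie on a chromosome that *Xist* does not coat. *Uty*, the homolog of *Kdm6a*, was at 14.4 and 16.7 CPM in FL noDOX and at 13.1 and 17.5 in FL DOX. *Ddx3y* was at 22.97 and 24.7, then 24.1 and 32.4 CPM, and *Eif2s3y* at 29.0 and 35.7, then 26.9 and 34.1. None of these 3 changed past the threshold in FL (log2 (fold change) between -0.084 and 0.25, adjusted p from 0.737 to 0.972), and the ranges of the DOX and noDOX libraries overlapped for each. In ΔB+C each was higher with DOX in both replicates, *Uty* at 12.9 and 14.1 after 10.5 and 9.29 CPM, *Ddx3y* at 21.1 and 26.7 after 13.5 and 17.8, and *Eif2s3y* at 34.0 and 34.4 after 20.3 and 22.6. These differences of 0.44, 0.61 and 0.68 had adjusted p of 0.208, 0.266 and 0.141, and 0.0571, 0.112 and 0.0495 with the block. In this line both DOX libraries lay above both noDOX libraries for 19.7% of all tested genes, and 9.89% were called higher with the block.

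**Figure D4:**
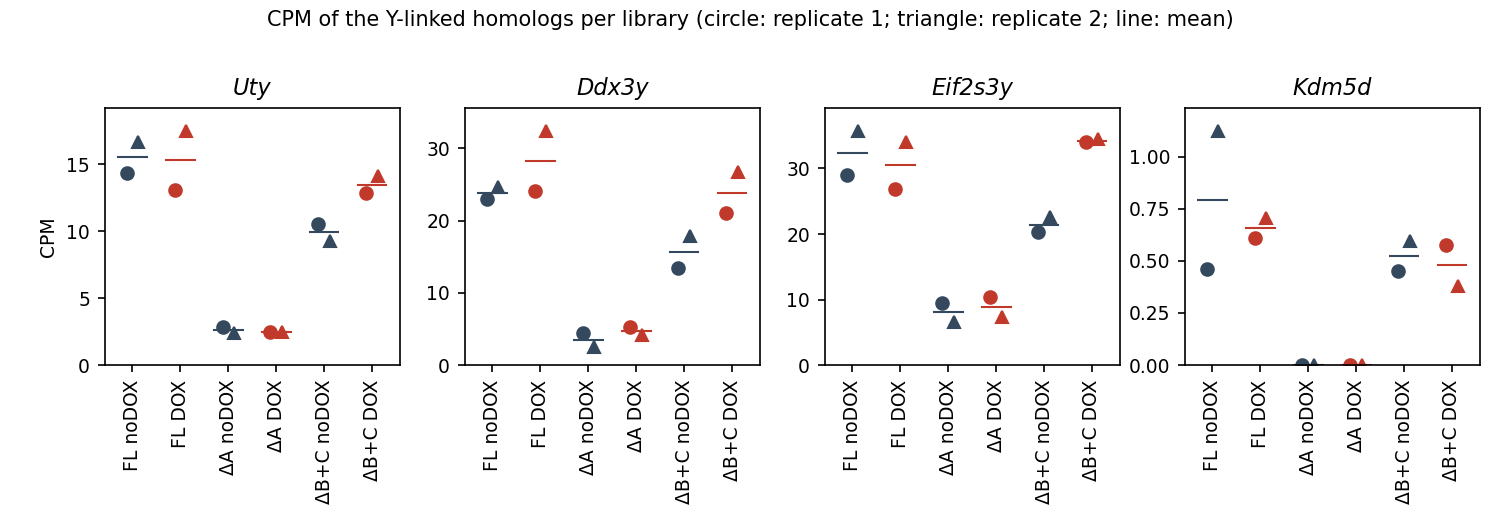
CPM of the Y‐linked homologs (vertical axes, each starting at 0) in the 6 groups, with circles for replicate 1, triangles for replicate 2, horizontal lines for means, noDOX in dark blue and DOX in red. The ΔA libraries are low for all 4 genes, from 2.44 to 2.84 CPM for *Uty* and at 0 counts for *Kdm5d*.

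These homologs were low in all 4 ΔA libraries, where all Y‐linked genes together held 0.00656 to 0.00937% of the counts, against 0.0119 to 0.0195% in the other lines. That total also counts *Erdr1*, at a mean of 75.6 CPM over the 12 libraries, against 22.6 for *Eif2s3y*, 16.6 for *Ddx3y* and 9.89 for *Uty*. It therefore does not measure the homologs alone. *Uty* was at 2.64 ± 0.288 CPM without DOX against 15.5 ± 1.63 in FL (-2.55 ± 0.19, adjusted p = 0.000130), *Ddx3y* at 3.51 ± 1.39 against 23.8 ± 1.20 (-2.75 ± 0.29, adjusted p = 0.00112) and *Eif2s3y* at 8.03 ± 2.11 against 32.3 ± 4.75 (-2.005 ± 0.23, adjusted p = 0.00181). *Kdm5d* had 0 counts in these 4 libraries, where 3 counts would have been 0.0737 to 0.0938 CPM, and 12 to 40 counts in each library of the other lines. With *Uty* low and *Kdm6a* high, the sum of both genes differed less between ΔA noDOX and FL noDOX (80.5 ± 6.36 and 68.0 ± 3.58 CPM) than *Kdm6a* alone did. The part of the low Y‐linked counts of the ΔA line in the starting level of *Kdm6a* was not tested. Because the aligner kept 1 position per read, reads that fit an X‐linked gene and its Y‐linked homolog equally well could have been counted for either.

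The share of X plus Y homolog counts held by the X‐linked gene sets it against its homolog within 1 library. This share also moves with the Y‐linked gene. In ΔB+C the means without and with DOX were 9.92 and 13.5 CPM for *Uty*, 15.7 and 23.9 for *Ddx3y* and 21.4 and 34.2 for *Eif2s3y*. A lower share there is thus not a measure of the X‐linked gene alone. For *Kdm6a* the share was 77.0 ± 3.60% without DOX and 77.8 ± 4.90% with DOX in FL, 96.7 ± 0.0991% and 96.4 ± 0.287% in ΔA, and 85.1 ± 0.129% and 82.4 ± 2.67% in ΔB+C. For *Eif2s3x* it went from 93.4 ± 1.05% to 91.7 ± 1.70% in FL and from 95.6 ± 0.257% to 90.2 ± 0.887% in ΔB+C. For *Ddx3x* it went from 97.8 ± 0.347% to 96.8 ± 1.12% and from 98.4 ± 0.504% to 97.1 ± 1.14%. For *Kdm6a*, *Eif2s3x*, *Ddx3x* and *Kdm5c* both DOX shares were below both noDOX shares in ΔB+C, and in FL the groups overlapped. *Kdm5c* held 99.5% or more in every group. No test of these shares was made.

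Most genes around *Kdm5c*, *Eif2s3x* and *Kdm6a* had lower log2 (fold change) than the member itself. So did most of all other tested X‐linked genes, 80.0%, 81.5% and 97.2% of them in FL and 62.5%, 70.2% and 96.5% in ΔB+C. Within 1 Mb of *Kdm5c*, 14 of 15 tested X‐linked genes had a lower log2 (fold change) than *Kdm5c* in FL and 14 of 15 in ΔB+C, with medians of -0.93 and -0.97. Its nearest tested neighbours were *Iqsec2*, at -0.87 and -0.97 in the 2 lines, and the transcript *Kantr*, at -0.92 and -0.81. Within 1 Mb of *Eif2s3x*, 12 of 13 were lower in each line, with medians of -0.89 and -0.94. There the transcription factor gene *Zfx* was at -0.78 and -0.87 and *Klhl15* at -1.24 and -0.94. Around *Kdm6a* 1 tested gene lay within 1 Mb, *Fundc1* at -0.71 and -0.77, and of the 3 nearest on each side 6 of 6 and 5 of 6 were lower than *Kdm6a*, with medians of -0.98 and -0.77, the nearest on the other side being *Chst7* at -0.91 and -0.78.

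**Figure D5:**
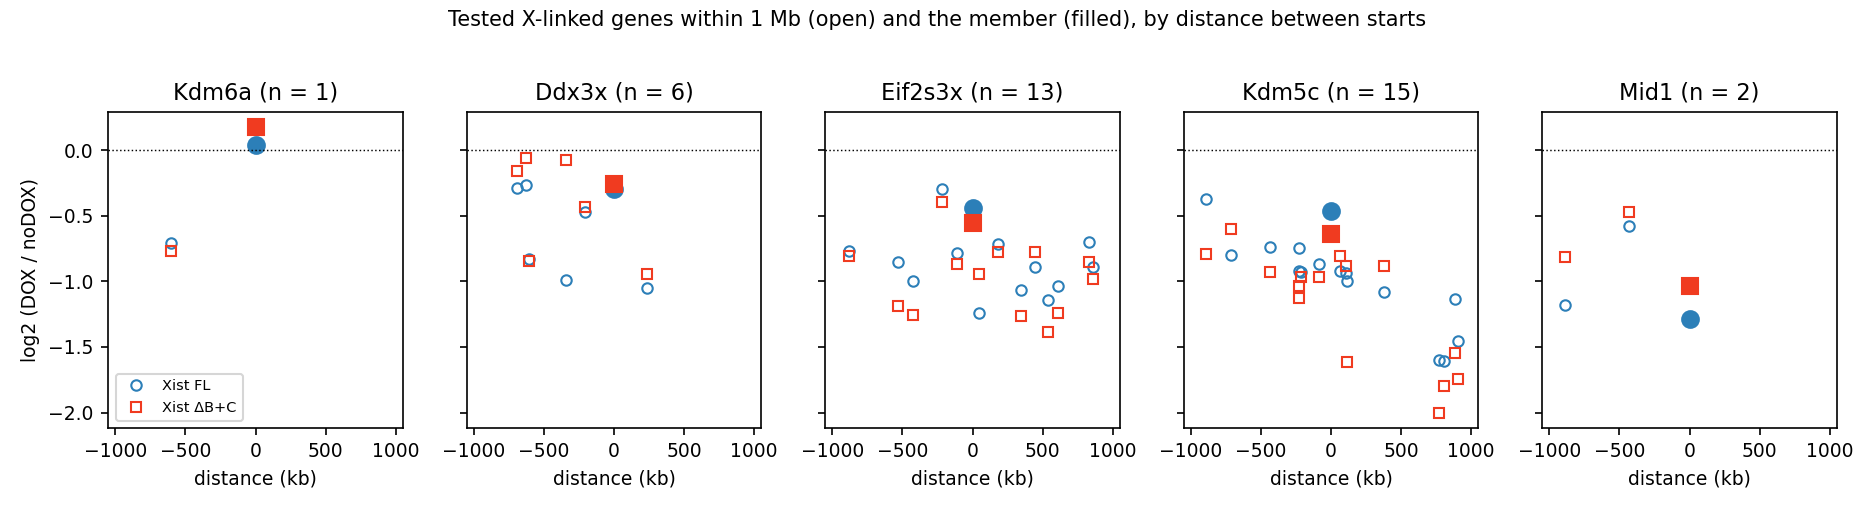
Log2 (fold change) with DOX (vertical axis) of the tested X‐linked genes within 1 Mb of each member (open symbols) and of the member itself (filled), by distance between gene starts in kb. Around *Kdm5c* (n = 15) and *Eif2s3x* (n = 13) 1 gene in each line lies above the member, around *Ddx3x* (n = 6) 2 in FL and 3 in ΔB+C, and around *Mid1* (n = 2) both.

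Around *Ddx3x* the count depended on which neighbours were taken. Of the 6 tested genes within 1 Mb, 4 were lower than *Ddx3x* in FL and 3 in ΔB+C, with medians of -0.65 and -0.29, and of the 3 nearest on each side 6 of 6 and 5 of 6 were lower, with medians of -0.91 and -0.77. Of all other tested X‐linked genes, 88.9% were lower than *Ddx3x* in FL and 87.8% in ΔB+C. Its nearest neighbour *Usp9x*, a deubiquitinase gene, was at -0.47 and -0.43, and *Cask* on the other side at -1.05 and -0.94. *Atp6ap2*, which departed upwards in both lines, also lies within 1 Mb of *Ddx3x*, at -0.29 and -0.16. Near *Mid1* the 2 tested genes within 1 Mb both had higher values than *Mid1*, *Hccs* at -0.58 and -0.47 and *Arhgap6* at -1.18 and -0.82. Of all other tested X‐linked genes, 17.2% were lower than *Mid1* in FL and 28.5% in ΔB+C.

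Other X‐linked genes reported to escape in mouse were also read. Of a list of 13, chosen apart from the members, 11 were in the files and 8 were tested. In FL 0 of 8 passed by edgeR, and 5 with the block, beside 27.5% and 80.6% of the other X‐linked genes. Their median was -0.52, against -0.86 over the other X‐linked genes and -0.0072 over all tested genes. In ΔB+C 0 of 8 passed, and 5 with the block, beside 34.2% and 75.6%, with a median of -0.48 against -0.78. The range in FL ran from -1.97 for *Firre* (adjusted p = 0.106; 0.000115 with the block) to -0.26 for *5530601H04Rik*. In ΔA the median was -0.013 and 0 passed.

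Paralogs and partners of the members were mostly short of the threshold. With the block, 5.72% of all tested genes were called higher and 8.13% lower in FL, and 9.89% and 12% in ΔB+C. Among 5 paralogs, *Kdm5a*, *Kdm5b*, *Kdm6b* and *D1Pas1* were tested, and 0 passed in any line without the block. The median was 0.16 in FL, with *Kdm5b* at 0.20 ± 0.12 in both lines (adjusted p = 0.0498 in ΔB+C with the block) and *Kdm5a* at -0.12 ± 0.15 and 0.0019 ± 0.14. Of the 9 genes for partners of KDM6A in the KMT2C and KMT2D complexes 0 passed in a DOX comparison without the block. Here *Ash2l* was highest in FL at 0.26 ± 0.19 and *Ncoa6* lowest at -0.33 ± 0.11 (adjusted p = 0.209; 0.0394 with the block). In ΔB+C *Ash2l* was at 0.34 ± 0.19 (adjusted p = 0.386; 0.0455 with the block). As for *Kdm6a*, 3 of the 9 were higher in ΔA noDOX than in FL noDOX, *Kmt2c* by 0.72 ± 0.15 (adjusted p = 0.0209), *Kmt2d* by 0.55 ± 0.14 (adjusted p = 0.0403) and *Paxip1* by 0.35 ± 0.068 (adjusted p = 0.0155), where 4.3% of all tested genes were called higher. *Wdr5* was at 0.29 ± 0.081 (adjusted p = 0.0536; 0.00293 with the block), which made 4 of 9 with the block, beside 16.2% of all tested genes.

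*Eif2s3x* encodes 1 subunit of eIF2, and the autosomal genes for the other subunits, *Eif2s1* and *Eif2s2*, were read beside it with the 5 genes of its exchange factor eIF2B. Of these 7, 0 passed without the block in any line. *Eif2s2* was the lowest, at -0.33 ± 0.085 in FL (adjusted p = 0.121; 0.0153 with the block) and -0.35 ± 0.085 in ΔB+C (adjusted p = 0.0618; 0.00723 with the block). *Eif2s1* was at -0.18 ± 0.15 and -0.28 ± 0.15 (adjusted p = 0.668 and 0.378; 0.0345 in ΔB+C with the block), and *Eif2b4* was the highest at 0.22 ± 0.13 in FL. With the block, 8.13% of all tested genes were called lower in FL and 12% in ΔB+C. Of the 3 genes for partners of MID1, *Mid1ip1* and *Igbp1* are themselves X‐linked. Among the other tested X‐linked genes, 27.5% were called lower in FL and 34.2% in ΔB+C, and 80.6% and 75.6% with the block. *Mid1ip1* fell from 104 ± 5.23 to 53.0 ± 4.79 CPM in FL (-0.97 ± 0.12, adjusted p = 0.00963) and from 143 ± 1.72 to 59.6 ± 8.40 in ΔB+C (-1.26 ± 0.12, adjusted p = 0.00247). *Igbp1* was at -0.48 ± 0.12 and -0.47 ± 0.12 (adjusted p = 0.0965 and 0.0672; 0.00430 and 0.00357 with the block), and the autosomal *Ppp2ca*, for a catalytic subunit of protein phosphatase 2A, at -0.031 ± 0.091 and 0.021 ± 0.091. Without DOX, *Mid1ip1* was higher in ΔA than in FL (0.56 ± 0.12, adjusted p = 0.0244) and *Ppp2ca* lower (-0.38 ± 0.091, adjusted p = 0.0328). In that comparison 4.3% of all tested genes were called higher and 5.54% lower.

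Across the 12 libraries the members did not form 1 group. The correlation of log2 CPM was highest between *Kdm5c* and *Eif2s3x* (r = 0.79), *Ddx3x* and *Mid1* (r = 0.78) and *Ddx3x* and *Eif2s3x* (r = 0.72), and lowest between *Kdm6a* and *Mid1* (r = -0.067). These values describe 12 libraries that share their line, DOX treatment and replicate number, and carry no test. Among the 10551 genes that averaged 5 CPM or more, the 2 most like *Eif2s3x* were X‐linked, *Fundc2* (r = 0.995) and *Morf4l2* (r = 0.993), with log2 (fold change) of -0.78 and -1.22 in FL. *Kdm5c* was most like the X‐linked *Hcfc1* (r = 0.985) and then *Cand1* (r = 0.977). The genes most like *Kdm6a* and *Ddx3x* were autosomal, *Foxn3* (r = 0.965) and *Rfx7* (r = 0.955) for *Kdm6a* and *Cfl2* and *Gnai3* (r = 0.988 each) for *Ddx3x*. *Mid1* was most like the X‐linked *Clcn5* (r = 0.976) and the autosomal *Piezo2* (r = 0.969).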

How the data were processed

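Gene counts of 12 RNA‐seq libraries (3 lines, noDOX and DOX, 2 replicates per group) were analysed. The authors mapped paired reads to mm10 with TopHat2 2.1.0, keeping 1 position per read, counted read pairs over refFlat exons with featureCounts 1.5.1, and deposited whole‐number counts per gene without normalization. A strand setting is not given in the sources used here. Groups follow the sample labels. Totals were 31337490 to 41240470 counts, and floors of 3 counts cover counting error only.

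The 13191 genes that reached 1 CPM in 6 or more libraries were tested with edgeR 4.0.16 in R 4.3.3 (quasi‐likelihood, robust; 6 group means; TMM factors from autosomal genes, 0.978 to 1.02), with Benjamini–Hochberg adjustment over all of them and a threshold of 0.05. P‐values measure the spread between the duplicates. The filter and the floors used library totals alone, and the CPM values given used the totals times the TMM factors from autosomal genes. Departures used TMM factors from X‐linked genes, with adjustment over X‐linked genes. Samples with the same replicate number deviated together (r = 0.399 to 0.820 over all 15 pairs of groups), so values from a fit with the replicate number as a block are given beside the calls it changes in the comparisons given. Alternatives used DESeq2 1.42.0, limma 3.58.1 (voom), other scalings, filters and left‐out libraries. Scripts were tested on simulated counts. Gene positions and exon lengths came from GENCODE vM21 (24188 of 24627 genes matched, 148 through older names), and start sequences from RefSeq (GRCm38.p6), in which all 5 members were found. Figures were drawn with matplotlib 3.10.9.

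The members and lists were chosen with earlier results of these data known. Named genes were the members, their Y homologs, in each other list the genes past the threshold and the extremes in *Xist* FL, the nearest tested X‐linked gene on each side, the 2 genes most correlated with each member, and *Xist*. The lists were other escape genes, paralogs, partners of eIF2, KDM6A and MID1, other Y‐linked genes (5, of which 0 passed the filter) and cell type markers.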

Additional observations from a re-analysis of the deposited data

Results flagged for a closer look

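With 2 libraries per group, a single outlying library could not be tested for. What drew attention was a response that differed between lines by a test of the difference itself. Without the replicate block this was so for *Kdm6a* alone, on the scale relative to the other X‐linked genes: its departure was 1.02 higher in ΔB+C than in ΔA (log2; adjusted p = 0.00886), 0.91 higher in FL than in ΔA (adjusted p = 0.0220), and 0.96 higher in the mean of FL and ΔB+C than in ΔA (adjusted p = 0.00435). With the block the same differences were 1.02 (adjusted p = 0.000254), 0.91 (adjusted p = 0.000646) and 0.96 (adjusted p = 9.24e-05), and *Ddx3x* passed too, at 0.39 for ΔB+C (adjusted p = 0.0340) and 0.39 for the mean (adjusted p = 0.0177), where 10% and 9.8% of the other X‐linked genes were higher.

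On the autosomal scale the differences passed with the replicate block only. *Kdm5c* had a lower response than in ΔA by -0.54 for ΔB+C, -0.36 for FL and -0.45 for their mean (adjusted p = 0.00531, 0.0470 and 0.00530). *Eif2s3x* had a lower one by -0.60, -0.48 and -0.54 (adjusted p = 0.00530, 0.0232 and 0.00360). *Kdm6a* had a higher one by 0.39 for ΔB+C and 0.32 for the mean (adjusted p = 0.0237 and 0.0256). *Kdm6a* was also 0.57 higher and *Uty* lower (log2 difference -2.55) in ΔA noDOX than in FL noDOX, and the part of these starting levels in the differences was not tested.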

How the results depend on the processing

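The replicate block raised the number of members called lower to 4 in FL and 4 in ΔB+C, and of those with responses below ΔA to 2 for ΔB+C, 2 for FL and 2 for their mean, and of those above it to 1 for ΔB+C and 1 for the mean. On the X‐linked scale it gave 4 members above and 1 below the trend in FL and 2 above in ΔB+C, and without DOX 2 members higher and 1 lower in ΔA. Beside these and the calls given with the results, the block changed no other call of a member. DESeq2 called 2 lower in FL, and 2 with responses below ΔA for ΔB+C and 2 for the mean. With the ΔB+C libraries alone 0 were lower, in a fit with fewer samples. Median scaling of the X‐linked genes and a filter of 5 CPM each put 2 members above the trend in ΔB+C. The shares of other genes called were counted for the main edgeR fits, with and without the block, and not for these alternatives.

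Leaving out 1 library at a time gave 0 to 2 members lower in ΔB+C (0 also without its DOX replicate 2 library of 100 ng, a setting listed after seeing the data) and 0 to 1 higher in ΔA noDOX. Values near 0 changed sign in some of these fits. The log2 (fold change) ranged from -0.054 to 0.14 for *Kdm6a* in FL, and in ΔA from -0.27 to 0.17 for *Ddx3x* and from -0.044 to 0.12 for *Eif2s3x*, which was -0.0023 with library totals alone. The difference between responses ranged from -0.24 to 0.27 for *Ddx3x* and from -0.58 to 0.96 for *Mid1* (ΔB+C minus FL), and from -0.50 to 0.011 for *Ddx3x* (ΔB+C minus ΔA). The departure ranged from -0.12 to 0.21 for *Kdm5c* and from -0.059 to 0.25 for *Ddx3x* in ΔA, and from -0.049 to 0.30 for *Kdm5c* and from -0.93 to 0.099 for *Mid1* in ΔB+C. Without DOX, *Ddx3x* ranged from -0.29 to 0.031 in ΔA against FL, and in ΔB+C against FL it ranged from -0.23 to 0.036, *Eif2s3x* from -0.014 to 0.027 and *Mid1* from -0.13 to 0.49. None of these values was past the threshold, and the cause was not tested. The arm left with 1 library is assumed to vary like the other groups. Of the single‐gene values, 313 under other settings and 682 with a library left out kept direction and side of the threshold.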
